A study of Mus musculus with 15 samples.

Results

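The genes described here are those of the transcription factor YY1 and of 9 subunits of the INO80 chromatin remodelling complex, chosen by symbol: Yy1, Ino80, Ino80b, Ino80c, Ino80e, Ruvbl1, Ruvbl2, Actr5, Actr8 and Nfrkb. All 10 were found among the 55335 gene identifiers of the count files, and all 10 passed the filter on low counts with 13077 genes in all. RNA was sequenced from cultured mouse pre-B cells in 3 libraries titled Msl2 knockout (KO) and 3 titled Msl2 wild type (WT). Both groups carry the Slp65 knockout, that is, loss of the adaptor protein encoded by Blnk, and the labels describe untreated bone marrow cells, subcloned from a single cell and cultured with interleukin 7. The KO line was made in these cells by CRISPR/Cas9 with a guide against Msl2, a ubiquitin ligase of the MSL histone acetyltransferase complex, and was compared with the wt clone, so each genotype is represented by 1 line. Nothing in the labels says that replicates were separate cultures, so p-values here reflect library-to-library spread that may be technical only. The immunoprecipitation samples of the series, YY1 among them, were not analysed here.

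YY1 is a zinc finger protein that binds promoters and enhancers, can activate or repress transcription, and in mammals is a stable partner of the INO80 complex. INO80 uses ATP to slide nucleosomes and to exchange histones, with roles in transcription, replication and DNA repair. In developing B cells YY1 is known for its part in the contraction and rearrangement of immunoglobulin loci. The series title concerns the targeting of the MSL complex by YY1, and the comparison asks whether RNA of YY1 and its INO80 partners differs between the libraries titled Msl2 knockout and wild type.

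No gene of the set differed between the groups beyond the spread of the libraries. Fold changes of KO over WT ran from 0.976 for Ruvbl1 to 1.14 for Ino80e, and the 95% intervals of all 10 held no change and lay within 1.5-fold in either direction. In edgeR's quasi-likelihood test 0 of the 10 genes were called higher and 0 lower at an adjusted p under 0.05, and 0 reached an unadjusted p under 0.05. DESeq2 and limma-voom also gave 0 by either measure. Of all 13077 genes tested, 4.59% were called (1.8% higher and 2.79% lower in KO), and 15.4% had an unadjusted p under 0.05. The KO and WT libraries overlapped in all 10 genes, whereas the groups did not overlap in 20.9% of all tested genes (9.68% higher and 11.2% lower in KO). The median log2 fold change was 0.041 over the 10 genes and 0.004 over all tested genes.

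In all 6 RNA libraries the genotype tag states the opposite of the title. Groups were taken from the titles, on which every direction given here depends. Msl2 RNA was at 105, 103 and 121 CPM (counts scaled to a common library size with TMM factors) in KO libraries 1, 2 and 3 and at 97.1, 99.3 and 92.3 CPM in WT libraries 1, 2 and 3. Msl2 RNA was thus higher in every KO library than in any WT library, as held for 9.68% of all tested genes. With groups taken from the genotype tags, it would be lower in every knockout library. Its level does not check the titles, since a small edit can leave the transcript in place. Libraries held between 14092278 and 20803227 counts, and the 10 genes had between 169 and 5302 reads in each library. Among pre-B cell markers, Cd79a, a signalling chain of the B cell receptor, was at 174 to 194 CPM in KO and 174 to 188 CPM in WT. Summed over the 12 genes of that list, levels were 2320 to 2360 CPM in KO and 2400 to 2540 CPM in WT. Of its 11 tested genes, 5 log2 fold changes were positive and 6 negative. Vpreb1 and Vpreb2, of the surrogate light chain, were lower in all KO libraries, at 0.886-fold and 0.903-fold, without a call (adjusted p 0.253 and 0.395 in edgeR). This separation held for 11.2% of all tested genes. The groups overlapped in Igll1, also of the surrogate light chain (0.974-fold), Ebf1 (1.11-fold) and Pax5 (1.04-fold). Il7r, the receptor of interleukin 7, was called lower in KO, at 0.345-fold (adjusted p 0.00392 in edgeR). The recombinase gene Rag2 was at 3.36, 2.07 and 2.44 CPM in KO libraries 1, 2 and 3 and at 0, 1.52 and 0 CPM in WT libraries 1, 2 and 3 (adjusted p 0.223 in edgeR), and Rag1 was also at 0 in WT libraries 1 and 3. Dntt, the terminal transferase, was at 1.06 CPM or less. Summed T and NK cell markers (13 genes, 8 under 1 CPM in every library) were at 7.85 to 14.1 CPM in KO and 12.4 to 21.2 CPM in WT, with Nkg7 and Ncr1 at 0, and Lat, an adaptor below the T cell receptor, was called lower in KO, at 0.313-fold (adjusted p 0.015 in edgeR). Myeloid markers (10 genes, 9 under 1 CPM) summed to 7.04 to 14.2 CPM in KO and 5.77 to 10.4 CPM in WT, with Lyz2, Elane, S100a8 and S100a9 at 0. Erythroid and megakaryocyte markers (10 genes, 8 under 1 CPM) summed to 132 to 190 CPM in KO and 146 to 171 CPM in WT, nearly all of it Hbb-bt, with Hba-a2 and Pf4 at 0. Of that list the transcription factor gene Gata1 was called lower in KO, at 0.235 ± 0.15 CPM in KO and 1.85 ± 0.31 CPM in WT (SD, n = 3 each, adjusted p 0.00458 in edgeR). Of the list of stromal markers (8 genes), 7 were under 1 CPM, with Col3a1, Pdgfrb and Cxcl12 at 0 and Lepr, the highest of the 7, at 0.199 CPM or less. The list summed to 115 to 131 CPM in KO and 103 to 123 CPM in WT, nearly all of it Pecam1. That sum is thus the level of Pecam1 and gives no level for stromal cells. The part of these markers in the values of the 10 genes was not tested. In bulk RNA, fewer cells of a type and less RNA per cell cannot be told apart.

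The promoter sequences printed here were chosen because they hold matches to the DNA consensus of YY1 next to genes of its own partner complex. Promoter windows of RefSeq (GRCm38.p6, from 250 bases before to 50 after a gene's start) were found for 7 of the 10 genes, 8 windows in all. The motif AANATGGC, searched on both strands, lay in the windows of 2 genes, Ino80b and Ino80e. Among all 32851 RefSeq windows, 6.05% held it, and 16.1% held its shorter form AANATGG, which it contains and which marked the same 2 genes. Capitals mark the match, and both sequences run 5′ to 3′ along the minus strand, on which both genes lie.
Ino80b, chr6:83125318-83125347, match beginning 217 bases before the start: gttttgagaacAAGATGGCattaagcctgg
Ino80e, chr7:126862438-126862467, match beginning 84 bases before the start, in the reverse orientation: catctcccggcGCCATTTTgcgtcaccagg
The Ino80e stretch also lies within the span of Hirip3, a histone chaperone gene that overlaps the start of Ino80e. A match is a description of the letters and not a binding site. The window of Yy1 held no match and had a G and C content of 81%.

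Yy1 (ENSMUSG00000021264.12, chromosome 12, 108792945 to 108820148, mm10) was at 99.9, 104 and 117 CPM in KO libraries 1, 2 and 3 and at 85.8, 96.5 and 113 CPM in WT libraries 1, 2 and 3. Both groups held their highest value in replicate 3, and the WT library 3 lay above 2 of the KO libraries. The means were 107 ± 8.9 CPM in KO and 98.5 ± 13.9 CPM in WT (SD, n = 3 each). The log2 fold change was 0.12 ± 0.11 (SE), with a 95% interval from -0.12 to 0.35, that is, from 0.922-fold to 1.28-fold (adjusted p 0.711 in edgeR). Without WT library 3 the log2 fold change was 0.23 (adjusted p 0.245), and without WT library 1 it was 0.027.

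The genes whose pattern over the 6 libraries was most like that of Yy1 were Elovl1, a fatty acid elongase, Cenps, a protein of the kinetochore and of DNA repair, and Jagn1, a protein of the endoplasmic reticulum. Likeness was the root mean square difference in log2 CPM after each gene's mean was removed, taken over 6 libraries and 9560 candidate genes whose mean log2 CPM was 2 or more. It was 0.017 for Elovl1, 0.0229 for Cenps and 0.0234 for Jagn1, against a median of 0.177 over those genes. Elovl1 was at 59.5, 61.5 and 68.6 CPM in KO libraries 1, 2 and 3 and at 51.9, 58.3 and 68.3 CPM in WT libraries 1, 2 and 3. As with Yy1, replicate 3 was the highest of each group. None of these 3 genes was called, with adjusted p from 0.682 to 0.808 in edgeR. Both traits follow from choosing genes by their likeness to Yy1 in these same libraries.

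**Figure D1:**
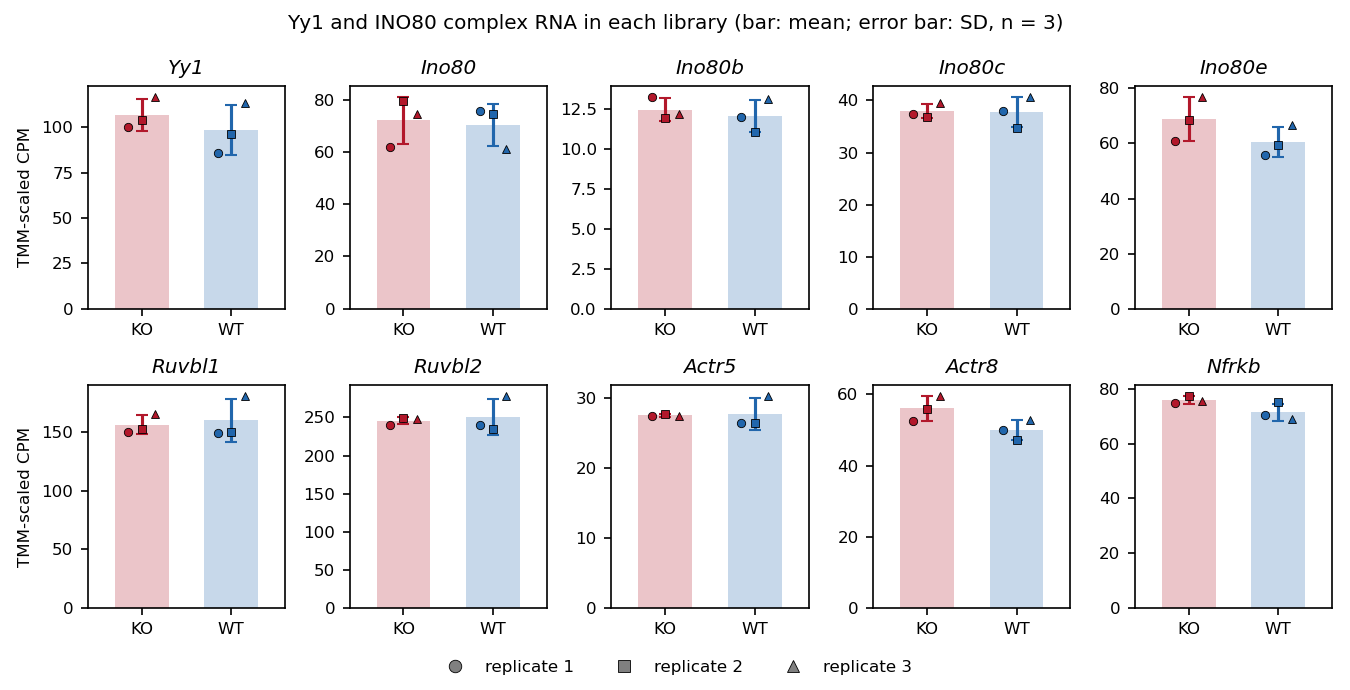
RNA level of each of the 10 genes in TMM-scaled CPM (y axis, from 0, scaled per gene), KO on the left and WT on the right. Bars are means, error bars SD (n = 3 libraries each), and symbols are libraries 1, 2 and 3; the KO and WT libraries overlap in every gene.

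Ino80 (ENSMUSG00000034154.15, chromosome 2, 119373042 to 119478685) encodes the ATPase on which the complex is built. It was at 62, 79.6 and 74.6 CPM in KO libraries 1, 2 and 3 and at 75.7, 74.4 and 61.1 CPM in WT libraries 1, 2 and 3. One library of each group lay near 61 to 62 CPM and the others between 74 and 80 CPM. The log2 fold change was 0.03 ± 0.11 (SE), with a 95% interval from -0.21 to 0.28 (adjusted p 0.944 in edgeR).

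Ruvbl1 and Ruvbl2 encode a pair of related AAA+ ATPases that form a ring of alternating copies, which INO80 shares with the SRCAP and TIP60 complexes. Ruvbl1 (ENSMUSG00000030079.15, chromosome 6, 88465409 to 88497566) was at 150, 153 and 165 CPM in KO libraries 1, 2 and 3 and at 149, 150 and 181 CPM in WT libraries 1, 2 and 3. Ruvbl2 (ENSMUSG00000003868.14, chromosome 7, 45421896 to 45436171) was at 240, 249 and 248 CPM in KO and at 240, 235 and 278 CPM in WT, in the same order. In both genes WT library 3 was the highest of all 6, and all KO libraries lay between WT library 3 and the other WT libraries. The log2 fold changes were -0.03 ± 0.09 (SE) for Ruvbl1, with an interval from -0.24 to 0.17, and -0.03 ± 0.08 (SE) for Ruvbl2, with an interval from -0.21 to 0.15 (adjusted p 0.927 and 0.933 in edgeR). The ratio of Ruvbl1 to Ruvbl2 CPM within a library, which does not depend on scaling and is not corrected for transcript length, was 0.626, 0.613 and 0.666 in KO libraries 1, 2 and 3 and 0.621, 0.638 and 0.649 in WT libraries 1, 2 and 3. Its mean log2 value was -0.66 ± 0.06 in KO and -0.65 ± 0.03 in WT (SD, n = 3 each), a difference of -0.004 with p = 1 in a two-sided exact permutation test, in which the smallest possible p is 0.1.

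Actr5, Ino80c and Ino80b encode proteins that act on the ATPase module. ACTR5 is an actin-related protein that forms a module with INO80C for nucleosome binding, and INO80B stimulates the ATPase. Actr5 (ENSMUSG00000037761.16, chromosome 2, 158624881 to 158639211) was at 27.4, 27.7 and 27.3 CPM in KO libraries 1, 2 and 3 and at 26.4, 26.3 and 30.3 CPM in WT libraries 1, 2 and 3. The KO libraries differed by a coefficient of variation of 0.75%, the smallest of the 10 genes in either group, and the WT libraries by 8.16%. Ino80c (ENSMUSG00000047989.11, chromosome 18, 24104761 to 24121819) was at 37.4, 36.9 and 39.5 CPM in KO libraries 1, 2 and 3 and at 37.9, 34.8 and 40.7 CPM in WT libraries 1, 2 and 3. Ino80b (ENSMUSG00000030034.11, chromosome 6, 83121765 to 83125119), the gene of the set with the fewest reads, was at 13.2, 11.9 and 12.1 CPM in KO and at 11.9, 11.1 and 13.1 CPM in WT, in the same order. The KO values lay within the range of the WT values, except for KO library 1 in Ino80b, which was 13.2 CPM against a highest WT value of 13.1 CPM. Log2 fold changes were -0.01 ± 0.09 for Actr5, 0.01 ± 0.09 for Ino80c and 0.05 ± 0.12 for Ino80b (SE), with adjusted p of 0.983, 0.991 and 0.926 in edgeR.

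Actr8 encodes an actin-related protein of the module that contacts the DNA between nucleosomes, while Ino80e and Nfrkb encode subunits found in animals and not in yeast. Actr8 (ENSMUSG00000015971.5, chromosome 14, 29978337 to 29995452) was at 52.7, 55.9 and 59.6 CPM in KO libraries 1, 2 and 3 and at 49.9, 47.3 and 52.7 CPM in WT libraries 1, 2 and 3. Only KO library 1 overlapped the WT range, and by less than 0.1 CPM. The means were 56.1 ± 3.5 CPM in KO and 49.98 ± 2.7 CPM in WT (SD, n = 3 each), with a log2 fold change of 0.17 ± 0.08 (SE) and an interval from -0.02 to 0.35. This was the smallest p of the set, 0.0697 before and 0.384 after adjustment over all tested genes in edgeR.

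Ino80e (ENSMUSG00000030689.15, chromosome 7, 126851584 to 126862372) was at 61, 68.6 and 77 CPM in KO libraries 1, 2 and 3 and at 55.7, 59.5 and 66.5 CPM in WT libraries 1, 2 and 3. Its log2 fold change of 0.18 ± 0.10 (SE) had an interval from -0.04 to 0.41 (unadjusted p 0.1, adjusted p 0.463 in edgeR). It was 0.10 without KO library 3. The KO and WT ranges overlapped between KO library 1 and WT library 3. Nfrkb (ENSMUSG00000042185.14, chromosome 9, 31386162 to 31421333) was at 74.8, 77.4 and 75.4 CPM in KO libraries 1, 2 and 3 and at 70.4, 75 and 69 CPM in WT libraries 1, 2 and 3. WT library 2 alone reached the KO range, and the log2 fold change was 0.09 ± 0.07 (SE), with an interval from -0.07 to 0.24 (adjusted p 0.67 in edgeR).

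**Figure D2:**
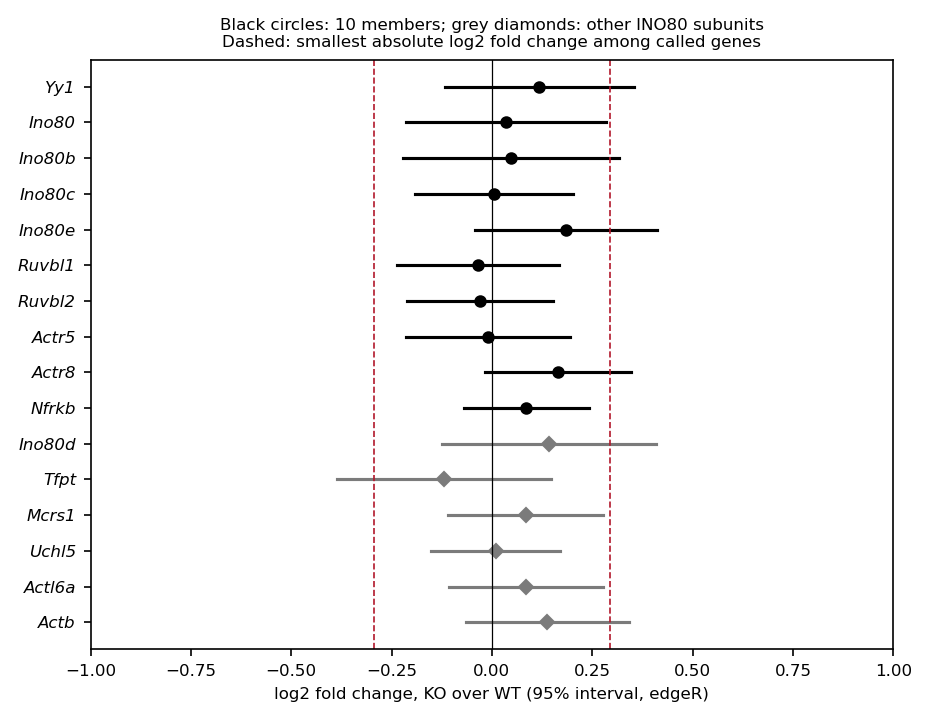
Log2 fold change of KO over WT (x axis) with its 95% interval from edgeR for the 10 genes (black circles) and 6 other INO80 subunits (grey diamonds). Every interval crosses 0, and the dashed lines mark 0.295, the smallest absolute log2 fold change among the 600 called genes of the whole table. The intervals of Yy1, Ino80b, Ino80e, Actr8, Ino80d and Actb pass the upper line, and that of Tfpt passes the lower line.

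These intervals can be set against what the same fit called elsewhere. The smallest change among the 600 called genes was 1.23-fold. The upper bounds of Yy1 (1.28-fold), Ino80b (1.25-fold), Ino80e (1.33-fold) and Actr8 (1.27-fold) lay above it, so an increase of that size is not excluded in these genes. The SE of the log2 fold change was 0.119 in the median over all tested genes and between 0.07 and 0.12 in the set. In 9 of the 10 genes it was at or under that median. A difference smaller than these intervals allow was not detectable at this depth and number of libraries. Levels are not compared between genes, because the files give no counted length.

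Some members share genomic span with other genes, and no strand setting is stated, so reads there could be shared. Ino80e overlaps Hirip3 over 444 bases, and Hirip3 averaged 47.4 ± 8.7 CPM in KO and 47.1 ± 4.2 CPM in WT (SD, n = 3 each, adjusted p 0.993 in edgeR). Ruvbl2 overlaps Gys1, the muscle glycogen synthase gene, over 1333 bases, and Gys1 averaged 37.3 ± 5.5 CPM in KO and 45.5 ± 3.2 CPM in WT (SD, n = 3 each, adjusted p 0.242 in edgeR). Other overlapping genes of Ino80e (Doc2a), Ruvbl1 (Gm46965), Actr5 (Mir3474) and Actr8 (Mir6947) were not among the tested genes.

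The libraries differed among themselves in a way that did not follow genotype. WT library 3 was the highest WT library in 8 of the 10 genes and the lowest in the other 2, Ino80 and Nfrkb, whereas over all tested genes it was highest in 38.5% and lowest in 38.3%. On the log2 scale it stood at 0.20 above the gene's mean over 6 libraries for Ruvbl1, 0.17 for Ruvbl2, 0.15 for Yy1 and 0.14 for Actr5, and at -0.21 for Ino80 and -0.09 for Nfrkb. Ino80 and Nfrkb have the longest genomic spans of the set, 106 and 35.2 kb. Ruvbl1 and Yy1, next in span at 32.2 and 27.2 kb, lay above their means, and Ruvbl1 had the largest positive value of the set. Over genes whose mean log2 CPM was 2 or more, the median deviation of WT library 3 was 0.0918 for 2255 genes spanning under 10 kb, 0.0279 for 5952 genes spanning 10 to 100 kb and -0.0886 for 926 genes spanning 100 kb or more. Of the set, Ino80b belongs to the first class, Ino80 to the last and the other 8 genes to the middle one, and Nfrkb lay on the other side of 0 from the median of its class. In the other 5 libraries these medians lay between -0.0395 and 0.0488. The part of gene span in the values of the members was not tested. Without WT library 3, 9 of the 10 log2 fold changes were positive, Ino80 being the exception at -0.055, and 0 were called, while 3 reached an unadjusted p under 0.05, with a smallest adjusted p of 0.245 in edgeR.

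**Figure D3:**
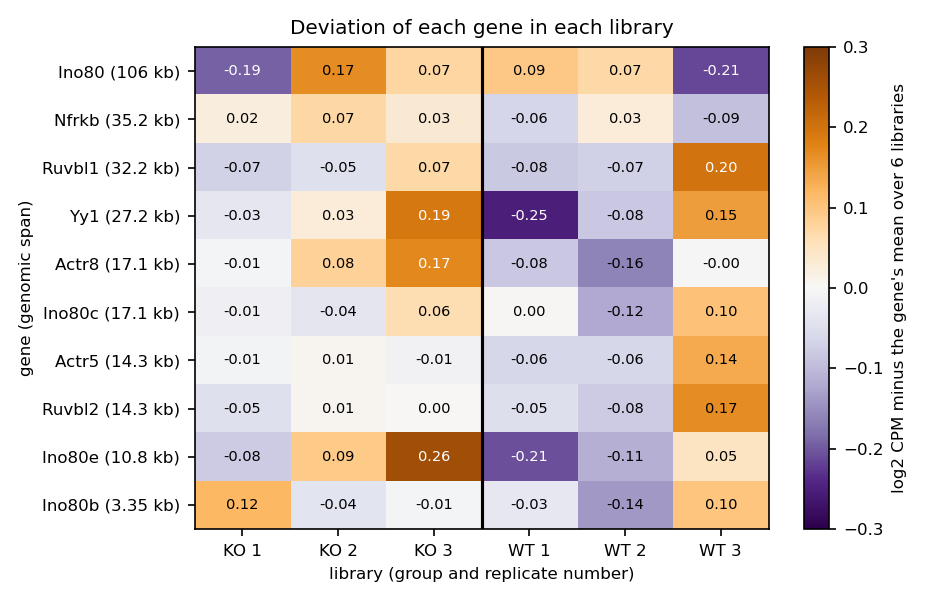
Log2 CPM of each gene in each library (columns, KO left, WT right) minus the gene's mean over the 6 libraries, with genes ordered from the longest genomic span at the top. WT library 3 is below the mean for Ino80 (-0.21) and Nfrkb (-0.09) and above it for Ruvbl1 (0.20), Ruvbl2 (0.17), Yy1 (0.15) and Actr5 (0.14).

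The remaining subunits of INO80 were also without a called gene. All 6 such genes were tested. By edgeR 0 were called and 0 reached an unadjusted p under 0.05, and their median log2 fold change was 0.085. The largest absolute value was that of Ino80d, at 75.3, 86.7 and 80.2 CPM in KO libraries 1, 2 and 3 and at 81.8, 79.3 and 58.6 CPM in WT libraries 1, 2 and 3 (log2 fold change 0.14 ± 0.12, SE, adjusted p 0.688). As in Ino80, WT library 3 was the lowest of the 6. Mcrs1, a subunit that INO80 shares with the NSL acetyltransferase complex, was at 92.4 CPM in KO and 87.2 CPM in WT (adjusted p 0.756), and Uchl5, a deubiquitinase, at 128 CPM in KO and 127 CPM in WT (adjusted p 0.977). Mcrs1 and Uchl5 were named outside the rule, after their values were seen.

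Complexes that share the RUVBL ring were likewise without called genes. Of 6 SRCAP genes, 14 TIP60 genes and 5 genes of the R2TP and TTT chaperone, all tested, 0 were called by edgeR and 0 reached an unadjusted p under 0.05. Median log2 fold changes were -0.038 for SRCAP, 0.027 for TIP60 and 0.014 for the chaperone genes, and these signs turned with single libraries. The SRCAP median was 0.047 without WT library 3 and 0.012 without KO library 3, the TIP60 median -0.005 and -0.017 without the same libraries, and the chaperone median -0.004 without WT library 2 and -0.013 without KO library 2. Their largest absolute values were those of Znhit1 (0.07 ± 0.12), Trrap, a scaffold protein of acetyltransferase complexes (0.17 ± 0.14), and Telo2, a cochaperone of large kinases (0.12 ± 0.10, all SE). For H2A.Z, the histone variant that SRCAP deposits and INO80 acts on, H2afz was at 620, 592 and 613 CPM in KO libraries 1, 2 and 3 and at 556, 528 and 626 CPM in WT libraries 1, 2 and 3 (adjusted p 0.705 in edgeR, named outside the rule). That list held 5 symbols, some of them alternative names of the same gene, and the 3 genes found under them were all tested. Of these 0 were called, and the largest value was that of the H2A.Z chaperone Anp32e, at 0.15 ± 0.10 (SE, adjusted p 0.568).

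Among relatives and partners of YY1, 3 of 10 were at 0 in every library. These were the paralogs Yy2 and Zfp42 and the Polycomb-linked gene Sfmbt2, whose symbols gave 0 reads in the 6 libraries, which allows at most 0.141 to 0.212 CPM for 3 counts per library. Of the other 7, 0 were called by edgeR and 0 reached an unadjusted p under 0.05. Sfmbt1, the Polycomb-linked paralog that was detected, had the largest absolute value, at 10.9, 12.7 and 11.6 CPM in KO libraries 1, 2 and 3 and at 14.1, 14.4 and 12.6 CPM in WT libraries 1, 2 and 3. Its groups overlapped by about 0.1 CPM, and the log2 fold change was -0.22 ± 0.12 (SE, adjusted p 0.446).

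Other remodelling ATPases of the SNF2 family, some of them also in the SRCAP and TIP60 lists, and the looping proteins CTCF and cohesin completed the comparison. Of 18 tested SNF2 family ATPases, 0 were called by edgeR and 0 reached an unadjusted p under 0.05. Chd2 had the largest absolute value, at 67.8, 57.9 and 42.8 CPM in KO libraries 1, 2 and 3 and at 84, 69.5 and 52.5 CPM in WT libraries 1, 2 and 3 (log2 fold change -0.29 ± 0.18, SE, adjusted p 0.547). In both groups it was highest in library 1 and lowest in library 3, and it was called with the replicate number as a block (adjusted p 0.03). Of 9 CTCF and cohesin genes, 0 were called by edgeR and 1 reached an unadjusted p under 0.05. This was the cohesin gene Rad21, at 278, 269 and 309 CPM in KO libraries 1, 2 and 3 and at 243, 251 and 251 CPM in WT libraries 1, 2 and 3, with all KO libraries above all WT libraries (unadjusted p 0.025, adjusted p 0.222, named outside the rule). Nipbl, the cohesin loader with the largest value of that list, had a log2 fold change of 0.22 ± 0.11 (SE, adjusted p 0.425). Over the 63 different genes tested in the 8 lists, log2 fold changes ran from -0.29 to 0.25, and the groups did not overlap in 4 (6.35%), against 20.9% of all tested genes.

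**Figure D4:**
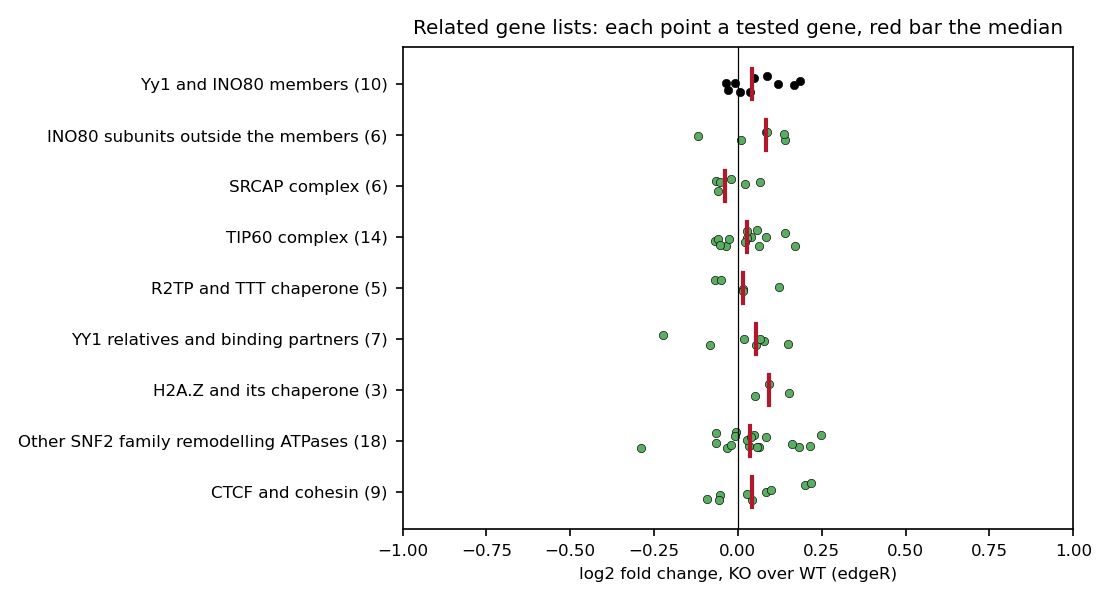
Log2 fold change of KO over WT (x axis, edgeR) for each tested gene of the 10 described genes and of 8 related lists, with the number of tested genes in brackets and the median as a red bar. All points lie between -0.29 and 0.25.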

How the data were processed

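Each of the 6 deposited RNA files holds raw counts, 1 whole number per gene, which the authors left without normalisation, per the file headers. Ribosomal RNA was removed from total RNA, per the labels' protocols. Tools named per the submitters' processing notes, with no role, include featureCounts 2.0.0, STAR 2.5.3a and limma, and the build is mm10. The strand setting, the annotation release and the treatment of multi-mapping reads were not given in the sources used here. Groups follow the sample titles. Genes were kept by filterByExpr, scaled by TMM and tested in R 4.3.3 by the quasi-likelihood test of edgeR 4.0.16 without covariates, with Benjamini-Hochberg adjustment over all 13077 tested genes and a threshold of 0.05. SE and 95% intervals come from the fold change and the F statistic. DESeq2 1.42.0 and limma-voom (limma 3.58.1) were alternatives, beside RLE scaling, library totals, no filter, a stricter filter (mean log2 CPM of 2), a replicate block and leaving out libraries. All pairs of replicates differed by more than sampling noise (chi-square per degree of freedom of 6.53 or more). Symbols were matched by gene identifier, and positions and promoters come from RefSeq GRCm38.p6. The genes and lists were chosen with earlier results of these data known, and the printed form of the motif after matches to several forms had been seen. The genes named are the 10 members, Msl2, tested genes overlapping a member, the called genes and the largest absolute value of each list, and the 3 genes most like Yy1. Cell type markers are named beside this rule, after their values were seen, with the called genes of each marker list among them. The floor of 3 counts for a gene at 0 covers counting error only.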

Additional observations from a re-analysis of the deposited data

How the results depend on the processing

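Over 14 alternatives for each of the 10 genes, 0 of 140 fits called a member, the smallest adjusted p being 0.134 (Ino80e with the replicate block), and 9 had an unadjusted p under 0.05, all of Actr8, Ino80e or Yy1. Yy1, Ino80e, Actr8 and Nfrkb had positive log2 fold changes in all 14. Values near 0 changed sign in 12 fits. Actr5 was at 0.012 with library totals only and 0.00061 with the stricter filter (mean log2 CPM of 2), and Ino80c at -0.027 without both libraries numbered 2. Without each library in turn, Yy1 ran from 0.027 to 0.232, Ino80e from 0.1 to 0.264, Actr8 from 0.123 to 0.208, Nfrkb from 0.063 to 0.121, Ino80 from -0.055 to 0.132, Ino80b from -0.012 to 0.114, Ino80c from -0.053 to 0.063, Ruvbl1 from -0.084 to 0.064, Ruvbl2 from -0.077 to 0.053, Actr5 from -0.046 to 0.062 and the log2 difference in the Ruvbl1 to Ruvbl2 ratio from -0.039 to 0.021. The medians over the lists ran from -0.013 to 0.089 for YY1 partners, from -0.004 to 0.077 for the SNF2 family ATPases, from 0.032 to 0.114 for the other INO80 subunits, from 0.058 to 0.196 for the H2A.Z list and from 0.027 to 0.082 for CTCF and cohesin. The difference in the Ruvbl ratio was 0.023 without both libraries numbered 2. The cause was not tested.

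Over all genes, 235 were called higher and 365 lower. The counts were 482 and 721 without a filter, where more genes were tested, and 195 lower with the stricter filter, where fewer were. Without both libraries numbered 2, 224 were lower. Without each library in turn the counts ran from 138 to 227 higher and from 242 to 316 lower. The lowest counts were those without WT library 1 (138 and 242), and 147 were higher without KO library 1. The main fit did not pair the samples by replicate number, and whether the numbers mark pairs was not settled. Deviations from the group means of same-numbered libraries correlated over genes at 0.0294, 0.212 and 0.403. Of the 6 libraries, 4 correlated best with their own number. With the replicate block 381 genes were called higher and 565 lower, and 1 gene of the related lists, Chd2, was called lower.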
